A study of Homo sapiens with 4 samples.

Results

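The proteasome genes described here encode the subunits of the proteasome, the factors that assemble it and its activators. Protein-coding genes whose symbol starts with PSMA, PSMB, PSMC, PSMD, PSME or PSMG followed by a number were taken, POMP was added, and the interferon-inducible subunits PSMB8, PSMB9 and PSMB10 were set aside. This gave 47 of the 58233 genes in the count table. The core particle held 14 of them, 7 of the alpha ring and 7 of the beta ring. The regulatory particle held 17, namely 6 ATPases and 3 other subunits of the base and 8 subunits of the lid. Another 5 genes encode chaperones of core assembly (PSMG1 to PSMG4 and POMP), 3 encode chaperones of base assembly (PSMD5, PSMD9 and PSMD10) and 4 encode activators of the core (PSME1 to PSME4). PSMA8 and PSMB11 encode core subunits of testis and thymus, and both had 0 counts in all 4 libraries. PSMC3IP, a cofactor of meiotic recombination, and PSME3IP1, a partner of PSME3, met the rule by symbol alone and were counted as members but placed in neither particle.

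Both cell lines, MIA PaCa-2 and PANC-1, were established from human pancreatic cancers and are labelled wild type. mRNA was sequenced 24 h after cells received cannabichromene (CBC), a phytocannabinoid of hemp, or PBS. MIA PaCa-2 cells received 35 µM CBC (library MIACBC) or PBS (MIAcon), and PANC-1 cells received 30 µM CBC (PANCCBC) or PBS (PANCcon). The doses are those of the methods section, which speaks of a vehicle where the labels say PBS. It names acetonitrile as the solvent of CBC, and whether the controls held acetonitrile is not given. If they did not, CBC and its solvent cannot be told apart. With 1 library per condition there were no replicates within a line, and dose and cell line cannot be told apart. Log2 fold changes are those of CBC over PBS within a line, and the ranges in parentheses after them are exact binomial (Clopper-Pearson) 95% intervals of the count ratio, which cover counting error only.

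The proteasome degrades proteins that carry chains of ubiquitin. Its regulatory particle binds the chain, removes it and uses a ring of ATPases to unfold the protein and feed it into the core, where the beta ring cuts it into peptides. When proteasome capacity falls short, the transcription factor NRF1 (gene NFE2L1) escapes degradation, is processed and, with a small MAF protein, binds antioxidant response elements in the promoters of proteasome genes and raises their transcription together.

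The libraries held 21742775 to 27903667 counts, and values are given as CPM, counts scaled to library size after TMM normalization over the 4 libraries, in which 3 counts are worth 0.110 to 0.135 CPM. The share of counts on mitochondrially encoded genes was 5.81% in MIAcon and 3.86% in MIACBC, and 4.63% in PANCcon and 2.42% in PANCCBC. KRT8, KRT18, KRT19 and VIM were counted in all 4 libraries, and KRT7 at 2 to 58 counts. EPCAM was at 0 and 1 and CDH1 at 0 in the MIA PaCa-2 libraries, while PANCcon and PANCCBC had 264 and 250 counts of EPCAM and 32 and 131 of CDH1. The blood, endothelial and fibroblast markers PTPRC, CD3E, PECAM1 and DCN were at 0 in every library and ALB at 0 or 1. COL1A1 had 11 and 13 counts in MIAcon and MIACBC, 3037 in PANCcon and 1268 in PANCCBC. The part of these differences in the proteasome values was not tested. In bulk RNA, fewer cells of a kind and less RNA per cell cannot be told apart.

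The antioxidant response element was searched as TGACNNNGC on both strands of RefSeq promoter windows (GRCh38.p14, 250 bases before to 50 after a start site), because it is the element through which NRF1 acts on these genes. A window was held for 41 of the 47 members, and 14 of the 41 had at least 1 match. Counted by window, 28% of the 50 member windows had a match, against 13.3% of all 35116 windows. Within the particles it was 14.3% of the 14 core windows and 27.8% of the 18 regulatory windows. The core windows belonged to 10 genes, with matches in PSMA4 and PSMB3. The regulatory windows belonged to 16 genes, with matches in PSMC4, PSMC5, PSMD1, PSMD3 and PSMD12. No window was held for PSMA7, PSMB1, PSMB6 and PSMB7 of the core or for PSMD4 of the regulatory particle. The matched stretches of 6 subunits of both particles are shown on the strand of their gene, with the match in capitals. In PSMC4 and PSMC5 the match is on the opposite strand, so the capitals hold its reverse complement.
PSMA4 (chr15:78540650-78540678, plus strand): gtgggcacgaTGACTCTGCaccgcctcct
PSMB3 (chr17:38752627-38752655, plus strand): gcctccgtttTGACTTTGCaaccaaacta
PSMC4 (chr19:39971182-39971210, plus strand): acagaggccgGCTTGGTCActatggagga
PSMC5 (chr17:63827654-63827682, plus strand): gaccggatctGCTGTGTCAgcgccgccct
PSMD3 (chr17:39980760-39980788, plus strand): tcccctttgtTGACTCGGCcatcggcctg
PSMD12 (chr17:67366724-67366752, minus strand): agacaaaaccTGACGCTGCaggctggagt
Counted from the start site of its own window, the first matched base lay at -126 in PSMA4, -104 in PSMB3, 28 in PSMC4, -57 in PSMC5, -37 in PSMD3 and -165 in PSMD12. The windows of the PSMA4 and PSMC5 matches belong to start sites inside the annotated genes. Those genes begin at 78540405 and 63827152, so both matches lie downstream of the annotated beginnings. PSMD3 also had a match at 34 on the opposite strand. The CCAAT box, whose letters can overlap the end of the other motif, was present on either strand in 46.0% of the member windows and in 34.6% of all windows. Members with and without the element had similar medians after CBC. Over the 14 members with a match the median log2 fold change of CBC over PBS was -0.11 in MIA PaCa-2 and -0.38 in PANC-1, and over the 25 tested members with a window and no match it was -0.12 and -0.38. A match of letters is not a bound site, and windows of 1 gene can overlap.

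Most proteasome transcripts were slightly below their control after CBC. Of the 47 genes, 45 reached 1 CPM in at least 1 library of each line and were compared. In MIA PaCa-2, 0 of 45 lay past a log2 fold change of 1 or -1, against 20.5% of all 14001 tested genes. In PANC-1, 1 of 45 did (PSMC3IP, lower), against 14.7% of 14091 genes. At 1.5-fold the members past the limit were PSMC4, PSMG4 and PSMD10 in MIA PaCa-2, 3 of 45 against 41.8% of all tested genes, and PSMC3IP, PSMG3, PSME2 and PSMD12 in PANC-1, 4 of 45 against 32.6%. The other 38 members stayed within 1.5-fold in both lines. The SD of the log2 fold changes over the members was 0.28 in MIA PaCa-2 and 0.29 in PANC-1, and over all tested genes, which include many of low counts, it was 0.98 and 0.78.

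**Figure D1:**
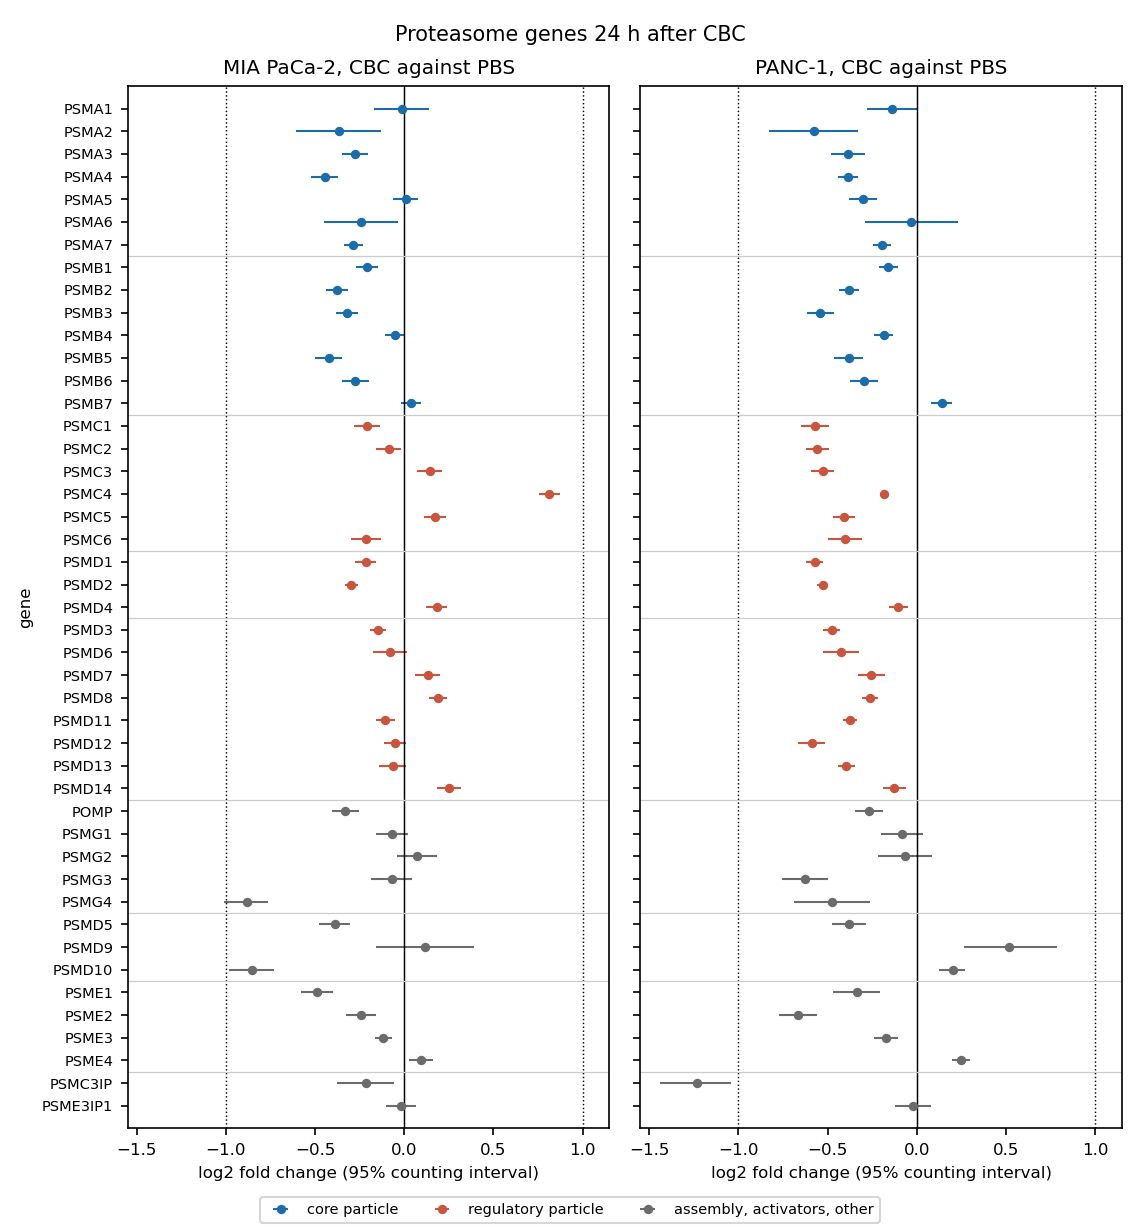
Log2 fold change of CBC over PBS (horizontal axis) for each of the 45 tested proteasome genes (vertical axis) in MIA PaCa-2 (left) and PANC-1 (right), 1 library per condition, with horizontal bars for the 95% counting interval, dotted lines at 1 and -1, and grey lines between roles. In PANC-1 all 17 regulatory subunits lie below 0, and in MIA PaCa-2, 7 of the 17 lie above it.

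In MIA PaCa-2, 33 of 45 members were below their control, against 50.9% of all tested genes, and the median log2 fold change was -0.12. In PANC-1, 41 of 45 were below it, against 48.6%, and the median was -0.38. Scaled by library totals, 28 and 38 of the 45 were below their control, among them 10 and 12 core subunits and 8 and 17 regulatory subunits. Over all tested genes the medians were -0.01 and 0.02 with TMM, and 0.05 and 0.09 with library totals. The counting interval excluded 0 for 33 of 45 members in MIA PaCa-2 and 40 of 45 in PANC-1, against 76.4% and 73.2% of all tested genes. Both lines were lower for 32 members, against 35.1% of the 12502 genes tested in both lines. With TMM, PSMB7, PSME4 and PSMD9 were higher in both, 9 members were higher in MIA PaCa-2 and lower in PANC-1, and PSMD10 was the reverse. Opposite signs were seen in 30.1% of the 12502 genes. Together, the 47 genes took 0.694% of counts in MIAcon and 0.675% in MIACBC, and 0.861% in PANCcon and 0.740% in PANCCBC.

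Core particle transcripts were lower after CBC by a similar amount in both lines. The median log2 fold change of the 14 subunits was -0.28 in MIA PaCa-2, with 12 lower, and -0.30 in PANC-1, with 13 lower. Their summed level was 2103 CPM in MIAcon and 1805 in MIACBC, and 2076 CPM in PANCcon and 1745 in PANCCBC. The alpha ring, which gates the entry to the chamber, had medians of -0.28 and -0.30, and the beta ring, which holds the proteolytic sites, had medians of -0.28 and -0.30.

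In the alpha ring the lowest mean of the 2 log2 fold changes was that of PSMA2, with 14.03 and 10.88 CPM in MIAcon and MIACBC and 13.5 and 9.04 CPM in PANCcon and PANCCBC. Its log2 fold changes were -0.37 (-0.61 to -0.13) and -0.58 (-0.83 to -0.33). The highest mean change was that of PSMA1, with 29.8, 29.5, 34.5 and 31.4 CPM in the same order of libraries, and both of its intervals included 0. PSMA4, whose promoter stretch is shown above, had 147.7 and 108.3 CPM in MIA PaCa-2 and 259.5 and 198.7 CPM in PANC-1. PSMA3, PSMA5, PSMA6 and PSMA7 had log2 fold changes between -0.29 and 0.01 in MIA PaCa-2 and between -0.39 and -0.03 in PANC-1. PSMA5 was the alpha subunit above 0, at 0.01 in MIA PaCa-2 with an interval from -0.06 to 0.08.

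The beta ring carries the catalytic threonines in PSMB5, PSMB6 and PSMB7, and their values differed. PSMB5 (ENSG00000100804, chromosome 14, 23016543 to 23035230), the subunit of chymotrypsin-like activity and the main target of bortezomib, had 139.7 and 104.2 CPM in MIAcon and MIACBC and 114.7 and 88.1 CPM in PANCcon and PANCCBC. Its log2 fold changes were -0.42 (-0.50 to -0.35) and -0.38 (-0.46 to -0.30). PSMB6, the subunit of caspase-like activity, had 134.3 and 110.9 CPM and then 118.8 and 96.7 CPM, log2 fold changes of -0.28 and -0.30. PSMB7, the subunit of trypsin-like activity, had 209.1 and 214.8 CPM in MIA PaCa-2 and 178.8 and 196.9 CPM in PANC-1. Its log2 fold changes were 0.04 (-0.02 to 0.10) and 0.14 (0.08 to 0.20), so that PSMB7 alone of the core was above its control in both lines. Of the structural beta subunits, PSMB3 had the lowest mean change, with 197.0 and 157.9 CPM in MIA PaCa-2 and 145.8 and 100.3 CPM in PANC-1. PSMB1, PSMB2 and PSMB4 had log2 fold changes between -0.38 and -0.05 in MIA PaCa-2 and between -0.38 and -0.16 in PANC-1.

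The medians of the regulatory particle lay farther apart between the lines than those of the core. The median log2 fold change of its 17 subunits was -0.06 in MIA PaCa-2, with 10 lower and 7 higher, and -0.41 in PANC-1, with all 17 lower. The summed level was 3308 CPM in MIAcon and 3311 in MIACBC, and 6074 CPM in PANCcon and 4804 in PANCCBC. By group, the ATPases had medians of 0.03 and -0.47, the other base subunits -0.22 and -0.53, and the lid -0.06 and -0.39.

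The 6 ATPases form the ring that unfolds substrates. PSMC4 had the highest mean change, with 150.9 CPM in MIAcon, 265.1 in MIACBC, 1923 in PANCcon and 1696 in PANCCBC. Its log2 fold change was 0.81 (0.75 to 0.87) in MIA PaCa-2, the highest of any member there, and -0.18 (-0.20 to -0.16) in PANC-1. PSMC1 had the lowest mean change, with 148.1 and 128.2 CPM in MIA PaCa-2 and 130.1 and 87.7 CPM in PANC-1, log2 fold changes of -0.21 and -0.57. PSMC3 and PSMC5 went with PSMC4 in direction, at 0.14 and 0.17 in MIA PaCa-2 and at -0.53 and -0.41 in PANC-1. PSMC2 and PSMC6 went with PSMC1, at -0.09 and -0.22 in MIA PaCa-2 and at -0.56 and -0.40 in PANC-1.

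Among the base subunits without ATPase activity, PSMD2 had the lowest mean change. This scaffold subunit had 557.6 and 453.6 CPM in MIAcon and MIACBC and 844.4 and 585.9 CPM in PANCcon and PANCCBC. Its log2 fold changes of -0.30 (-0.34 to -0.26) and -0.53 (-0.56 to -0.50) pointed the same way in both lines. PSMD1, the other scaffold, was at -0.22 and -0.57. PSMD4, a receptor for ubiquitin chains, had 191.8 and 217.7 CPM in MIA PaCa-2, a log2 fold change of 0.18 (0.12 to 0.24). In PANC-1, it had 236.9 and 220.4 CPM, -0.10 (-0.16 to -0.05), the value nearest to 0 of any regulatory subunit there.

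The lid holds PSMD14, the deubiquitinase that cuts the chain from the substrate, and it had the highest mean change of the lid. PSMD14 had 138.5 and 164.7 CPM in MIA PaCa-2, a log2 fold change of 0.25 (0.18 to 0.32), and 163.8 and 149.9 CPM in PANC-1, -0.13 (-0.19 to -0.06). PSMD12 had the lowest mean change, with 180.1 and 173.5 CPM in MIA PaCa-2, where the interval of -0.05 included 0, and 138.0 and 91.7 CPM in PANC-1, -0.59 (-0.67 to -0.51). PSMD7 and PSMD8 were at 0.13 and 0.19 in MIA PaCa-2 and at -0.26 and -0.26 in PANC-1. PSMD3, PSMD6, PSMD11 and PSMD13 lay between -0.15 and -0.06 in MIA PaCa-2 and between -0.48 and -0.38 in PANC-1.

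Set against each other, the particles stood in a different order in the 2 lines. In MIA PaCa-2 the regulatory median was above the core median by 0.21 on the log2 scale, 16 of 17 regulatory subunits were above the core median, and 7 of 17 were above every core subunit. In PANC-1 the regulatory median was below the core median (-0.11), and 12 of 17 regulatory subunits were below it. The median of all tested genes was -0.01 in MIA PaCa-2, also above the core median of -0.28 there. It was 0.02 in PANC-1, above both particle medians. The share of all genes above or below a core median was not counted. All 17 regulatory subunits had a larger log2 fold change in MIA PaCa-2 than in PANC-1, with a median difference of 0.36, against 8 of 14 core subunits with a median difference of 0.01 and a median of -0.01 over the 12502 genes tested in both lines. The values of the particles overlapped, and 5 of 14 core subunits in MIA PaCa-2 and 0 in PANC-1 were below every regulatory subunit. Subunits of 1 library are not replicates, so the order was not tested. Scaled by library totals, the regulatory median in MIA PaCa-2 was 0.00, so that its sign there depended on the scaling.

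**Figure D2:**
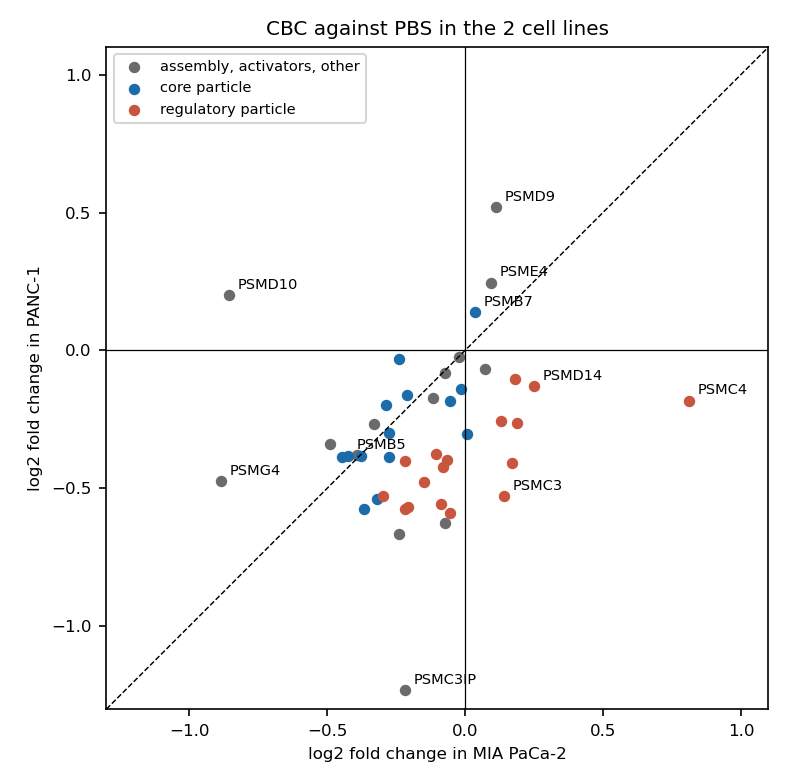
Log2 fold change of CBC over PBS in MIA PaCa-2 (horizontal axis) against that in PANC-1 (vertical axis) for the 45 tested proteasome genes, 1 point per gene, with a dashed line where both are equal. All 17 regulatory subunits fall below the dashed line, core subunits fall on both sides of it, PSMC4 lies alone at the right, and PSMD10 is the single point at the upper left.

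Over the 45 members the log2 fold changes of the 2 lines had a Pearson's r of 0.21 and a Spearman's rho of 0.32. This is a description across genes of the same 4 libraries, and genes are not independent replicates.

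The assembly factors ranged from -0.88 to 0.11 in MIA PaCa-2 and from -0.63 to 0.52 in PANC-1. Of the core chaperones, PSMG4 (ENSG00000180822, chromosome 6, 3231403 to 3303373) had the lowest mean change, with 65.1 and 35.3 CPM in MIAcon and MIACBC and 17.2 and 12.4 CPM in PANCcon and PANCCBC. Its log2 fold changes were -0.88 (-1.01 to -0.76) and -0.47 (-0.69 to -0.26), and PSMG4 was lower in both lines. PSMG3, its partner in a chaperone pair, was at -0.07 in MIA PaCa-2 and at -0.63 (-0.76 to -0.50) in PANC-1. PSMG2 had the highest mean change, with 53.7 and 56.4 CPM in MIA PaCa-2 and 28.9 and 27.6 CPM in PANC-1, and both of its intervals included 0. PSMG1, the partner of PSMG2, was at -0.07 and -0.08 with intervals that also included 0. POMP, which guides the maturation of the beta subunits, had log2 fold changes of -0.33 (-0.41 to -0.26) and -0.27 (-0.35 to -0.19).

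The 3 chaperones of base assembly differed in direction. PSMD5 had the lowest mean change, with 105.5 and 80.5 CPM in MIA PaCa-2 and 81.1 and 62.4 CPM in PANC-1, log2 fold changes of -0.39 and -0.38. PSMD9 had the highest, with 9.22 and 9.99 CPM in MIA PaCa-2, where the interval of 0.11 included 0, and 8.53 and 12.3 CPM in PANC-1, 0.52 (0.26 to 0.79). PSMD10 (ENSG00000101843, chromosome X, 108084207 to 108091549), also known as gankyrin, is named here because of its values. It had 61.1 and 33.8 CPM in MIAcon and MIACBC, a log2 fold change of -0.86 (-0.98 to -0.73), and 116.8 and 134.2 CPM in PANCcon and PANCCBC, 0.20 (0.13 to 0.27). It was the single member below its control in MIA PaCa-2 and above it in PANC-1.

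The activators bind the core in place of the regulatory particle. PSME1 and PSME2 form the interferon-inducible ring that serves antigen processing, and both were below their controls in both lines. PSME2 had the lowest mean change, with 106.4 and 89.99 CPM in MIA PaCa-2 and 75.1 and 47.3 CPM in PANC-1, log2 fold changes of -0.24 (-0.33 to -0.16) and -0.67 (-0.77 to -0.56). PSME1 was at -0.49 and -0.34. PSME3, the nuclear ring, was at -0.12 and -0.17. PSME4 had the highest mean change, with 149.5 and 159.7 CPM in MIA PaCa-2 and 245.9 and 291.7 CPM in PANC-1, log2 fold changes of 0.10 (0.03 to 0.16) and 0.25 (0.20 to 0.30).

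The member past a log2 fold change of 1 was not a subunit. PSMC3IP (ENSG00000131470, chromosome 17, 42572310 to 42577831) had 29.9 and 25.7 CPM in MIAcon and MIACBC, a log2 fold change of -0.22 (-0.38 to -0.06), and 27.6 and 11.7 CPM in PANCcon and PANCCBC, -1.23 (-1.44 to -1.04). PSME3IP1, the other gene matched by symbol alone, was at -0.02 in both lines with intervals that included 0. Without these 2 genes, 0 of 43 tested members passed a log2 fold change of 1 in either line.

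The 2 lines are the only replication of CBC against PBS, so all 4 libraries were also fitted in 1 model that blocked on cell line and left 1 residual degree of freedom. In edgeR's quasi-likelihood test 0 of 45 members passed a Benjamini-Hochberg adjusted p of 0.05, against 4.71% of the 16381 genes tested, and DESeq2 also gave 0. At an unadjusted p under 0.05 there were 2 members, against 20.9% of all genes, and 5 in DESeq2. The smallest p was that of PSMG4, with a log2 fold change of -0.68 (SE 0.25) over both lines and an edgeR adjusted p of 0.176. PSMD2 followed with -0.41 (SE 0.18) and an edgeR adjusted p of 0.238. The common coefficient of biological variation was 23%. It comes from how far the 2 lines differed in their response, doses included, and not from replicates within a line. A member that moved in opposite directions in the 2 lines could thus hardly be called. A p that misses the threshold does not show that the levels were alike.

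Transcript levels were compared between subunits per kb of canonical transcript. In MIAcon the core subunits ran from 9.78 CPM per kb in PSMA2 to 291.0 in PSMA7 with a median of 143, and the regulatory subunits from 33.7 in PSMC1 to 191 in PSMD2 with a median of 80.4. In PANCcon the core and regulatory medians were 99.3 and 113 CPM per kb. This order in PANCcon depended on PSMA1, PSMA2 and PSMA6, whose levels are uncertain for a reason given below. Core subunits are present in equal numbers in a particle, but their transcripts were not at 1 level in any of the 4 libraries.

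**Figure D3:**
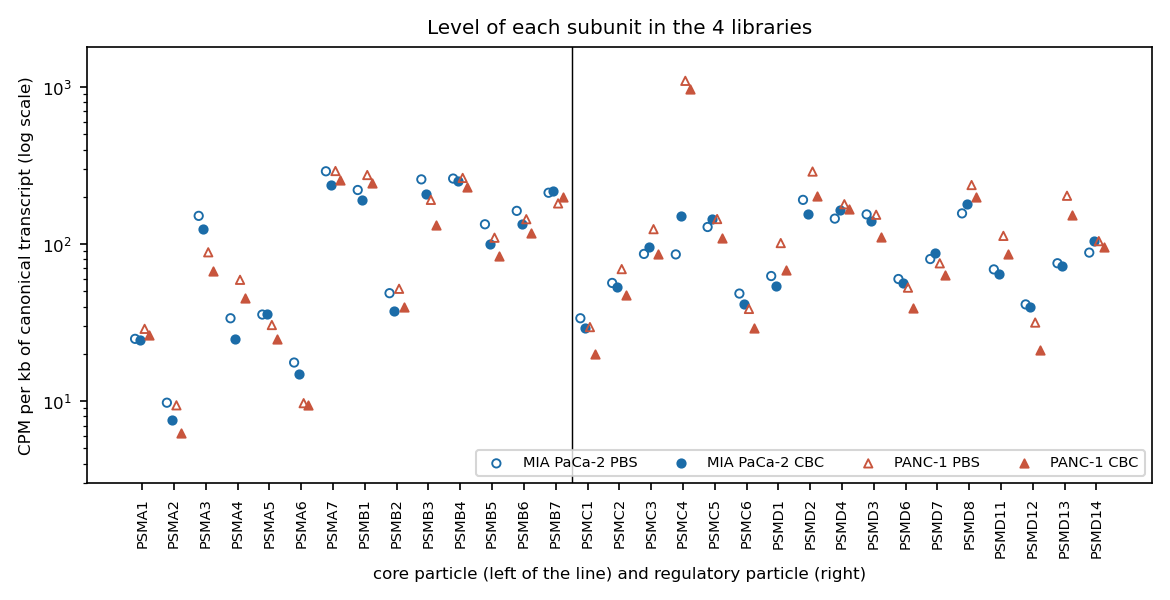
Level of each core subunit (left of the line) and regulatory subunit (right) in CPM per kb of canonical transcript, on a log axis, with open symbols for PBS, filled symbols for CBC, circles for MIA PaCa-2 and triangles for PANC-1, 1 library per symbol. PSMC4 stands above all other subunits in both PANC-1 libraries, and PSMA2 and PSMA6 are the lowest in all 4.

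The low level of some alpha subunits goes with an overlap in the annotation. PSMA1, PSMA2, PSMA6 and PSMD9 share exons with a protein-coding read-through gene on the same strand, which covers 67.0%, 100%, 81.4% and 28.8% of their canonical transcripts. Those read-through genes had 0 to 4 counts in every library. In MIAcon the levels were 25.0 CPM per kb for PSMA1, 9.78 for PSMA2, 17.6 for PSMA6 and 3.38 for PSMD9. How the counting treated reads in shared exons is not given in the sources used here, so the level of these 4 genes is uncertain, and its part in their log2 fold changes was not tested. Without PSMA1, PSMA2 and PSMA6 the lowest core subunit in MIAcon was PSMA4, with 33.7 CPM per kb. The core median was then 163 CPM per kb in MIAcon and 144 in PANCcon. Both were above the regulatory medians of 80.4 in MIAcon and 113 in PANCcon. Counts on 45 pseudogenes named after members came to 0.0253% to 0.146% of the counts on members and pseudogenes together.

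Among the members, the largest contrast between the PBS controls was that of PSMC4 (ENSG00000013275). Its level in PANCcon was 12.7 times that in MIAcon, while the other 44 tested members had ratios from 0.264 (PSMG4) to 2.69 (PSMD13) with a median of 0.925. PSMC4 lies on chromosome 19 of GRCh38 from 39971165 to 39981764. Protein-coding genes within 1500 kb of it that had at least 100 counts in MIAcon were compared in the same way. The 29 neighbours up to AKT2, from 38619082 to 40285536, were all higher in PANCcon, by 1.82-fold (LRFN1) to 84.1-fold (PLEKHG2) with a median of 7.12-fold, and 25 of them were more than 4-fold higher. The 21 neighbours beyond AKT2 had ratios from 0.327 (ACTMAP) to 4.25 (AXL) with a median of 0.735, and 2 of them were more than 4-fold higher. Over all 10067 protein-coding genes with as many counts, 3.64% were more than 4-fold higher. The boundary at AKT2 was set after these values were seen. Amplification of this part of the long arm of chromosome 19 is known from PANC-1, but DNA copy number was not measured here and its part was not tested.

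**Figure D4:**
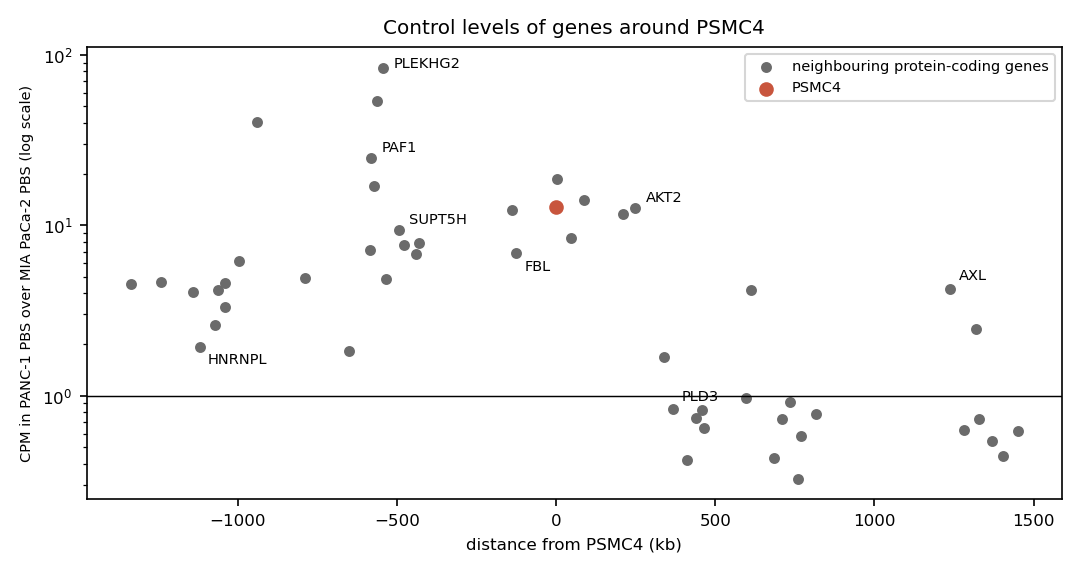
Ratio of CPM in PANC-1 PBS to CPM in MIA PaCa-2 PBS (vertical log axis) for protein-coding genes around PSMC4, against the distance from PSMC4 in kb (horizontal axis), 1 point per gene and 1 library per line, with a line at equal levels. Every gene from the left edge to AKT2 lies above the line, and most genes to the right of AKT2 lie below it.

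PSMC4 made up 1923 of the 6074 CPM of the regulatory particle in PANCcon. Without it, the regulatory particle summed to 3157 CPM in MIAcon and 3046 in MIACBC, and to 4151 CPM in PANCcon and 3108 in PANCCBC. With PSMC4, PSMA1, PSMA2 and PSMA6 left out, a choice made after their values were seen, the regulatory median minus the core median was 0.21 in MIA PaCa-2 and -0.11 in PANC-1, as with all subunits.

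Genes that act with the proteasome were taken from 5 lists, and they are given for comparison. The 3 immunoproteasome subunits replace the catalytic subunits under interferon. PSMB8 had 46 and 71 counts in MIAcon and MIACBC and 303 and 407 in PANCcon and PANCCBC, and PSMB9 had 42, 48, 115 and 106. PSMB10 had 54, 64, 25 and 27 counts. All intervals of these 3 genes included 0.

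Of the 13 proteasome-associated proteins, 0 passed the test over both lines, where 2.26% of all genes passed it as higher and 2.45% as lower. ADRM1, a ubiquitin receptor of the base, had 164.8 and 324.6 CPM in MIA PaCa-2, a log2 fold change of 0.98 (0.92 to 1.04), and 193.4 and 167.6 CPM in PANC-1, -0.21 (-0.27 to -0.15). SEM1, a small lid subunit outside the PSM symbols, was at -0.25 and -0.18. UCHL5, a deubiquitinase held by ADRM1, had the lowest mean change, at -0.03 and -0.79. ECPAS, an adaptor that binds the regulatory particle, had the highest, with 181.3 and 268.3 CPM and then 163.0 and 226.6 CPM, log2 fold changes of 0.57 and 0.48 and an edgeR adjusted p of 0.162 over both lines.

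Of the 10 genes for NRF1 activation, related transcription factors and their partners, 2 passed the test as higher over both lines, and both encode small MAF proteins. The list was not particular to NRF1, since it also held NFE2L2, BACH1 and KEAP1. In MIA PaCa-2 and PANC-1 the log2 fold changes were 0.55 and 0.37 for NFE2L2, 0.655 and 0.47 for BACH1, and 0.10 and -0.14 for KEAP1. MAFF had 15.8 and 97.2 CPM in MIA PaCa-2 and 6.16 and 16.1 CPM in PANC-1, with a log2 fold change of 2.03 (SE 0.35) over both lines and an edgeR adjusted p of 0.0230. MAFG had 53.7 and 167.6 CPM and then 116.0 and 213.5 CPM, 1.27 (SE 0.25) and an edgeR adjusted p of 0.0334. NFE2L1 itself had 187.3 and 687.6 CPM in MIAcon and MIACBC, a log2 fold change of 1.88 (1.83 to 1.93), and 492.6 and 671.0 CPM in PANCcon and PANCCBC, 0.45 (0.41 to 0.48). Over both lines it gave 1.17 (SE 0.33) and an edgeR adjusted p of 0.0922, while DESeq2 gave an adjusted p of 0.0475. Over the alternatives its edgeR adjusted p ran from 2.79e-07 with no filter to 1.0 without the block. NFE2L3, its relative, had the lowest mean change at -0.43 and -0.77. The median over the proteasome members in the same libraries was -0.12 and -0.38.

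Upstream of the proteasome, 0 of the 5 genes for ubiquitin and its activating enzymes passed the test over both lines. UBA6, an activating enzyme, had the highest mean change, with 86.1 and 105.8 CPM in MIA PaCa-2 and 80.8 and 91.5 CPM in PANC-1, log2 fold changes of 0.30 (0.21 to 0.38) and 0.18 (0.09 to 0.27). UBB, which encodes a chain of ubiquitin units, had the lowest at -0.18 and -0.20. Of the 10 shuttles and p97 genes, 1 passed as higher, SQSTM1, the receptor p62 that carries ubiquitinated cargo to autophagosomes. SQSTM1 had 180.2 and 1438 CPM and then 491.5 and 1949 CPM, a log2 fold change of 2.50 (SE 0.26) over both lines and an edgeR adjusted p of 0.00657. VCP, the p97 segregase that extracts proteins for the proteasome, had the lowest mean change at 0.06 and -0.51.

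**Figure D5:**
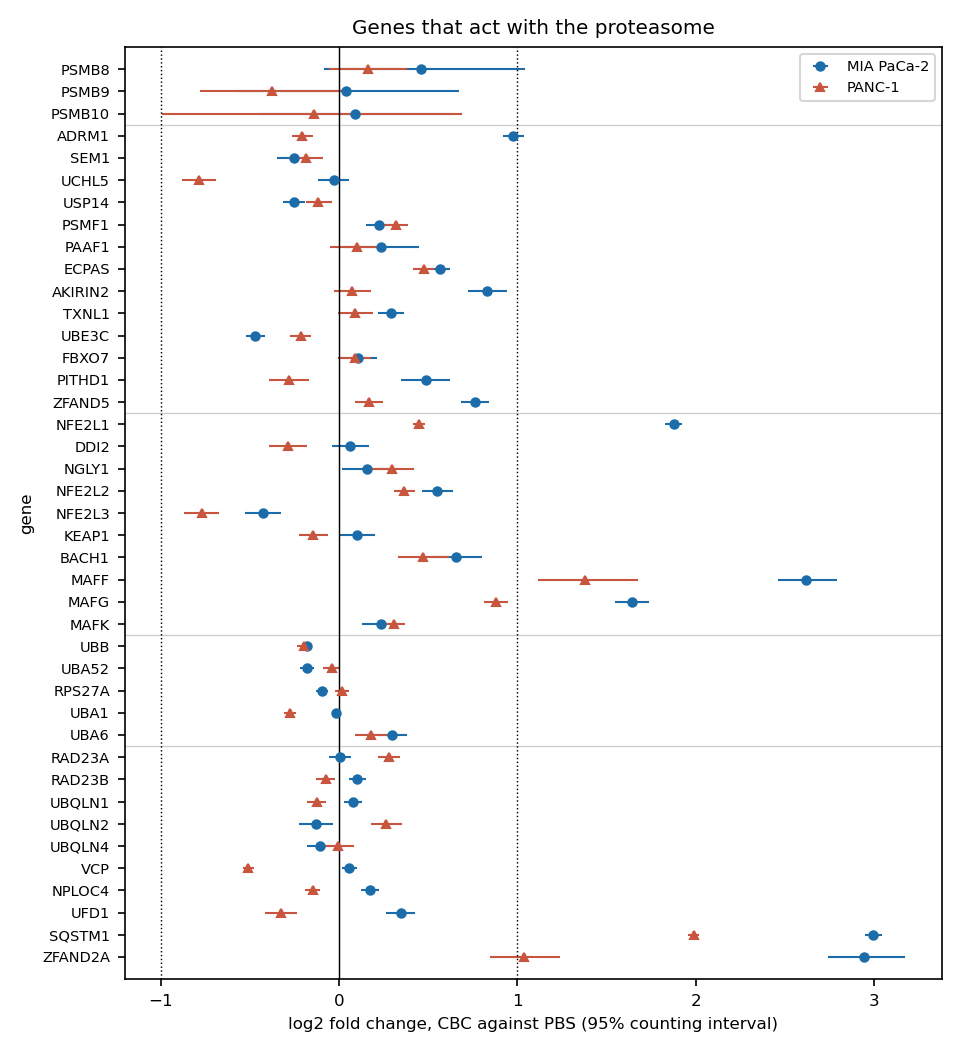
Log2 fold change of CBC over PBS (horizontal axis) for genes that act with the proteasome (vertical axis, grey lines between lists), circles for MIA PaCa-2 and triangles for PANC-1, 1 library per condition, with bars for the 95% counting interval and dotted lines at 1 and -1. SQSTM1, ZFAND2A and MAFF lie past 1 in both lines, and most other genes lie between the dotted lines.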

How the data were processed

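mRNA of 4 libraries, 1 per condition, was analysed from the deposited raw counts per Ensembl gene. The authors used cutadapt 2.7 for trimming, STAR for alignment to GRCh38 and HTSeq for counting on an Ensembl GTF. The library kit marks strand, but the strand setting and mode of counting are not given in the sources used here. The deposited set also has 1 normalized signal for each library, which equals CPM on TMM-scaled library sizes (largest relative difference 6.84e-09) and was used as an alternative.

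Of 58233 identifiers, 57392 matched GENCODE release 44, which gave symbols, positions and lengths. edgeR 4.0.16 (R 4.3.3) gave the log2 fold changes, with TMM over 4 libraries and a prior count of 2. A gene was compared in a line if either of its libraries reached 1 CPM. Clopper-Pearson 95% intervals of the count ratio (scipy 1.17.1) and the limit of 3 counts cover counting error only, and PCR reads without molecular identifiers are not independent molecules. At this depth 3 counts are 0.110 to 0.135 CPM. The test over both lines was edgeR's quasi-likelihood test, blocked on cell line, with Benjamini-Hochberg adjustment, and was tried first on simulated data. The changed genes there moved more than any member here, and alike in both lines. That run does not show how well smaller or unlike changes are found. Libraries were paired by cell line, and their deviations from their treatment means correlated at 0.923. p-values measure only the spread between these 4 libraries. Figures used matplotlib 3.10.9.

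The members and lists were chosen with earlier results of these data known. Named with their values were members past a log2 fold change of 1 or called over both lines, those with the highest and lowest mean change in each role, PSMB5, PSMB6, PSMB7, PSMD4 and PSMD14, members under the filter, the genes with the highest and lowest mean change in each list, and ADRM1, SEM1 and NFE2L1. PSMA4, PSMD10, MAFG, NFE2L2, BACH1, KEAP1 and the neighbours of PSMC4 were added after their values were seen. Alternatives changed the scaling (library totals, size factors of DESeq2 1.42.0, or TMM within each line), the filter, the prior count, the values, the limit of a call, the summary of a particle, and for the test the block and the tool. A gene of the ubiquitin list is not reported here.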

Additional observations from a re-analysis of the deposited data

Results flagged for a closer look

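For 8 members the 2 lines moved in opposite directions after CBC, each with 1 library per condition, so the differences between lines were not tested. By sign alone, log2 fold changes were opposite for 10 of the 45 members tested in both lines and for 30.1% of all such genes. The 8 are those of the 10 whose counting intervals both excluded 0. The share of all genes that meet this stricter rule was not counted. The log2 fold change in MIA PaCa-2 minus that in PANC-1 was 0.669 for PSMC3, 0.994 for PSMC4 and 0.579 for PSMC5 among the ATPases. It was 0.286 for the ubiquitin receptor PSMD4, 0.388 for PSMD7, 0.452 for PSMD8 and 0.378 for the deubiquitinase PSMD14. For the base chaperone PSMD10 it was -1.054. The regulatory median minus the core median was above 0 in MIA PaCa-2 and below 0 in PANC-1, and the difference between the lines was 0.319, also not tested.

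Outside the members, the pseudogene PSMD10P2 had 254 counts in PANCCBC, 18 in PANCcon, 4 in MIACBC and 0 in MIAcon. Its parent PSMD10 had 3666 counts in PANCCBC. A processed pseudogene can take reads of its parent, which was not tested.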

How the results depend on the processing

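A reversal was counted only for a member value past a log2 fold change of 1 or -1. PSMC3IP in PANC-1 was the single such value, and it kept its sign under the alternatives run. Particle medians and the other members were not judged by that rule, and their changes of sign are given below. In the test over both lines 0 of 45 members passed under any alternative. A limit of 1.5-fold called 3 members in MIA PaCa-2 in place of 0, and 4 in PANC-1 in place of 1, and the other calls of that kind did not change with scaling, filter, prior count or the deposited CPM. The regulatory median in MIA PaCa-2 was -0.08 with DESeq2 size factors, 0.00 with library totals, 0.024 as a mean and 0.002 as a sum, so its sign is not firm. The core there was -0.21 with library totals, -0.23 as a mean and -0.22 as a sum, and the difference of the particles was 0.255 as means. In PANC-1 the core was -0.33 with TMM within the line, -0.23 with library totals, -0.27 as a mean and -0.25 as a sum, and the regulatory particle -0.44, -0.43 with DESeq2 size factors, -0.34 with library totals and -0.34 as a sum. Leaving out PSMC4, PSMA1, PSMA2 and PSMA6, chosen after seeing the data, gave regulatory medians of -0.07 and -0.42. Of 450 values of single members under alternatives, 413 stayed within their counting interval, and the largest shift was 0.07. Library totals turned the sign of 5 members in MIA PaCa-2 (PSMA1, PSMB4, PSMD12, PSMD13 and PSME3IP1) and 3 in PANC-1 (PSMA6, PSME3IP1 and PSMG2), and DESeq2 size factors that of PSMA5 in MIA PaCa-2.

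Without the replicate block, that is without the cell line, the test called 0 of 16381 genes, 354 at an unadjusted p under 0.05, against 771 and 3428 with it. DESeq2 called 1296 genes, library totals 730, DESeq2 size factors 633 and no filter 2063. The smallest edgeR or DESeq2 adjusted p of a member lay between 0.155 and 0.214 with the block. Leaving out a library was not run, since 3 libraries leave this model no residual degree of freedom and a line with 1 library no comparison.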
